A study of Mus musculus with 8 samples.

Results

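Wnt pathway genes were examined in CUT&Tag peak lists from mouse embryonic fibroblasts (MEFs) on day 5 of reprogramming. The set held 40 genes, of 21884 protein-coding genes on chromosomes 1 to 19, X and Y. The genes were chosen by name and by role and not by any measured value, though earlier results of these data were known. They comprised 19 ligands (the Wnt genes), 12 receptors (Fzd1 to Fzd10, Lrp5 and Lrp6), 6 effectors (Ctnnb1, Axin2, Lef1, Tcf7, Tcf7l1 and Tcf7l2) and 3 secreted inhibitors (Dkk1, Sfrp1 and Sfrp2). The locus of a gene was its GENCODE gene body in the mouse build mm10 with 20 kb on each side, and a peak was counted when it overlapped the locus.

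CUT&Tag uses an antibody to bring a transposase to a protein or histone mark, and the transposase inserts sequencing adapters into the DNA around it. Both arms received Oct4, either with wild-type Nanog (NanogWT, labelled Nanog+Oct4) or with NanogBiD (labelled NanogN70+Oct4), in which a domain of SS18 that binds the BAF chromatin remodelling complex is fused to the N-terminus of NANOG. That NanogN70 is NanogBiD is inferred here from the length of the SS18 domain the study describes, since neither the labels nor its text state it. The targets were the FLAG tag, which marks the introduced NANOG and not the endogenous protein, BRG1 (the ATPase of BAF), H3K27ac, a mark of active promoters and enhancers, and H3K4me1, a mark of enhancers and promoter flanks. Each of the 8 groups, 4 targets in 2 arms, had 1 merged library, so no test between arms was possible. There was no library of uninfected fibroblasts among these lists, and cells on day 5 are a mixed population, so that more cells carrying a peak and more signal in each cell cannot be told apart.

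Wnt ligands are secreted lipid-modified proteins that bind Frizzled receptors together with LRP5 or LRP6. In the canonical branch this stops the destruction complex, of which AXIN2 is a part, from degrading β-catenin (Ctnnb1), which then enters the nucleus and acts with the DNA-binding TCF and LEF proteins. DKK1 and the SFRP proteins block the pathway outside the cell, and the TCF proteins, TCF7L1 above all, also act as repressors when β-catenin is absent. The pathway is known in pluripotent cells for relieving TCF7L1 repression of pluripotency genes, and in fibroblasts for its part in mesenchymal identity.

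The sites at which the arms differed are shown first. The 8 sequences below are the 101 bases centred on a FLAG summit, on the plus strand of mm10, and were selected after their values had been seen. The opening 5 have a FLAG peak in both arms and more BRG1 in NanogBiD, the next 2 have FLAG and BRG1 peaks in NanogBiD alone, and the last has FLAG in NanogWT alone, with a BRG1 peak of that arm further into the gene. Capitals mark a match to one of the 6 motifs listed further on, and a sequence with no capitals held none of them.
Axin2, 18.1 kb past the nearest annotated start, chr11:108961688-108961788: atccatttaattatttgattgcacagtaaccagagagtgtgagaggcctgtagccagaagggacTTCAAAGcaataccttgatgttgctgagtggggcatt
Lef1 intron, chr3:131139564-131139664: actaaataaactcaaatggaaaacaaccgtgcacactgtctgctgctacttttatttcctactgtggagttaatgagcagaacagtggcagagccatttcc
Tcf7l2 intron, chr19:55750012-55750112: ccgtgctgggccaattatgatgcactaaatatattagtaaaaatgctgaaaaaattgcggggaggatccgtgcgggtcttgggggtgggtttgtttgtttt
Wnt5a, 6.2 kb before the nearest start, chr14:28498494-28498594: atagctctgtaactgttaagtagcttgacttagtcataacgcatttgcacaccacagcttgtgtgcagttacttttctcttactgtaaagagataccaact
Sfrp1, 42.8 kb past the nearest start, chr8:23454259-23454359: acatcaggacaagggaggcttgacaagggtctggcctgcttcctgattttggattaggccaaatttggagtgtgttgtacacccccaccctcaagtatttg
Fzd3 intron, chr14:65241308-65241408: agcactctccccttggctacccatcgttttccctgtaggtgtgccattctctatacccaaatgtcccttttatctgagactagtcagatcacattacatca
Wnt4, 37.4 kb past the nearest start, chr4:137314829-137314929: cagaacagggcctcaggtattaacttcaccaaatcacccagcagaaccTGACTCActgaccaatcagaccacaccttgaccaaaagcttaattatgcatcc
Sfrp1 promoter, chr8:23411309-23411409: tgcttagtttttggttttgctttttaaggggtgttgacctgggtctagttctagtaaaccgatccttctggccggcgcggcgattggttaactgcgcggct

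The 8 lists held between 30859 and 74782 peaks. Whole-list ratios of peak number, fusion over wild type, were 1.27 (FLAG), 1.74 (BRG1), 1.20 (H3K27ac) and 0.791 (H3K4me1), and the depth of the libraries is unknown. The height of a peak is the number of overlapping tags at its summit, not scaled to depth. As a check of the labelled cell type, H3K27ac peaks lay at the promoters of 10 of 12 fibroblast markers in both arms, with Prrx1 and Tcf21 lacking one. They lay at 0 of 8 pluripotency markers in NanogWT and 2 of 8 in NanogBiD (Sall4 and Tdgf1), and at 0 and 4 of 13 markers of other lineages (Ptprc, Cdh5, Krt8 and Tubb3 in NanogBiD). A promoter peak in a mixed population does not show that pluripotent cells or cells of other lineages were present, and this was not tested.

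The Wnt loci together held more BRG1 peaks and fewer H3K4me1 peaks in NanogBiD, as the lists as a whole did. There were 118 FLAG peaks in NanogWT against 136 in NanogBiD (ratio 1.15, 95% counting interval 0.894 to 1.49). BRG1 peaks numbered 70 and 103, a ratio of 1.47 (1.08 to 2.02). H3K27ac peaks numbered 78 and 89, a ratio of 1.14 (0.832 to 1.57), and H3K4me1 peaks 197 and 154, a ratio of 0.782 (0.629 to 0.970). The whole-list ratio of FLAG, H3K27ac and H3K4me1 lay inside the interval of the Wnt loci, and so did that of BRG1. When both arms of a target were cut to the length of the shorter list by score, the BRG1 ratio at the Wnt loci became 0.871 (0.608 to 1.25), with 70 and 61 peaks, the H3K4me1 ratio became 1.03 (0.815 to 1.29), the FLAG ratio 0.907 (0.691 to 1.19) and the H3K27ac ratio 0.910 (0.651 to 1.27). The direction over all 40 loci thus changed for every target with this cut. When each list was cut to its top 20000 peaks instead, it changed for FLAG, BRG1 and H3K4me1, while the H3K27ac ratio was 1.18 (0.724 to 1.94). With a minimum score of 100 in both arms no direction changed, and the BRG1 ratio was 2.07 (1.29 to 3.42). In the BRG1 lists of equal length the lowest score was 50 in NanogWT and 94.1 in NanogBiD. The way the lists were cut thus moved these values, and the part of library depth in their lengths was not tested.

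By locus, 21 of the 40 genes (52.5%) had more FLAG peaks in NanogBiD and 7 (17.5%) had fewer, beside 40.9% and 14.4% of all protein-coding loci. For BRG1, 20 (50%) had more and 4 (10%) fewer, beside 42.1% and 10% of all. H3K27ac peaks were more numerous at 12 loci (30%) and fewer at 8 (20%), beside 29.1% and 13.5%. For H3K4me1 the counts were 8 (20%) and 22 (55%), beside 16.2% and 42.5%. Nothing particular to the Wnt genes was read from these shares. With both arms cut to the shorter list the larger count moved to the other side for each target, with 14 more and 17 fewer for FLAG, 6 and 12 for BRG1, 9 and 15 for H3K27ac, and 15 and 13 for H3K4me1. Of all loci, 23.3% then had more and 27.6% fewer FLAG peaks, and 14.9% had more and 32.0% fewer BRG1 peaks, while the shares were 18.2% and 21.4% for H3K27ac and 29.2% and 25.6% for H3K4me1. Wnt loci had a median length of 62.3 kb, against 57.4 kb for all, and a longer locus can hold more peaks. The loci of Wnt1 and Wnt10b, Wnt3 and Wnt9b, Wnt3a and Wnt9a, and Wnt6 and Wnt10a overlap in pairs, and the genes of every pair but Wnt3 and Wnt9b share peaks, while 24 of the 40 loci contain another protein-coding gene.

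**Figure D1:**
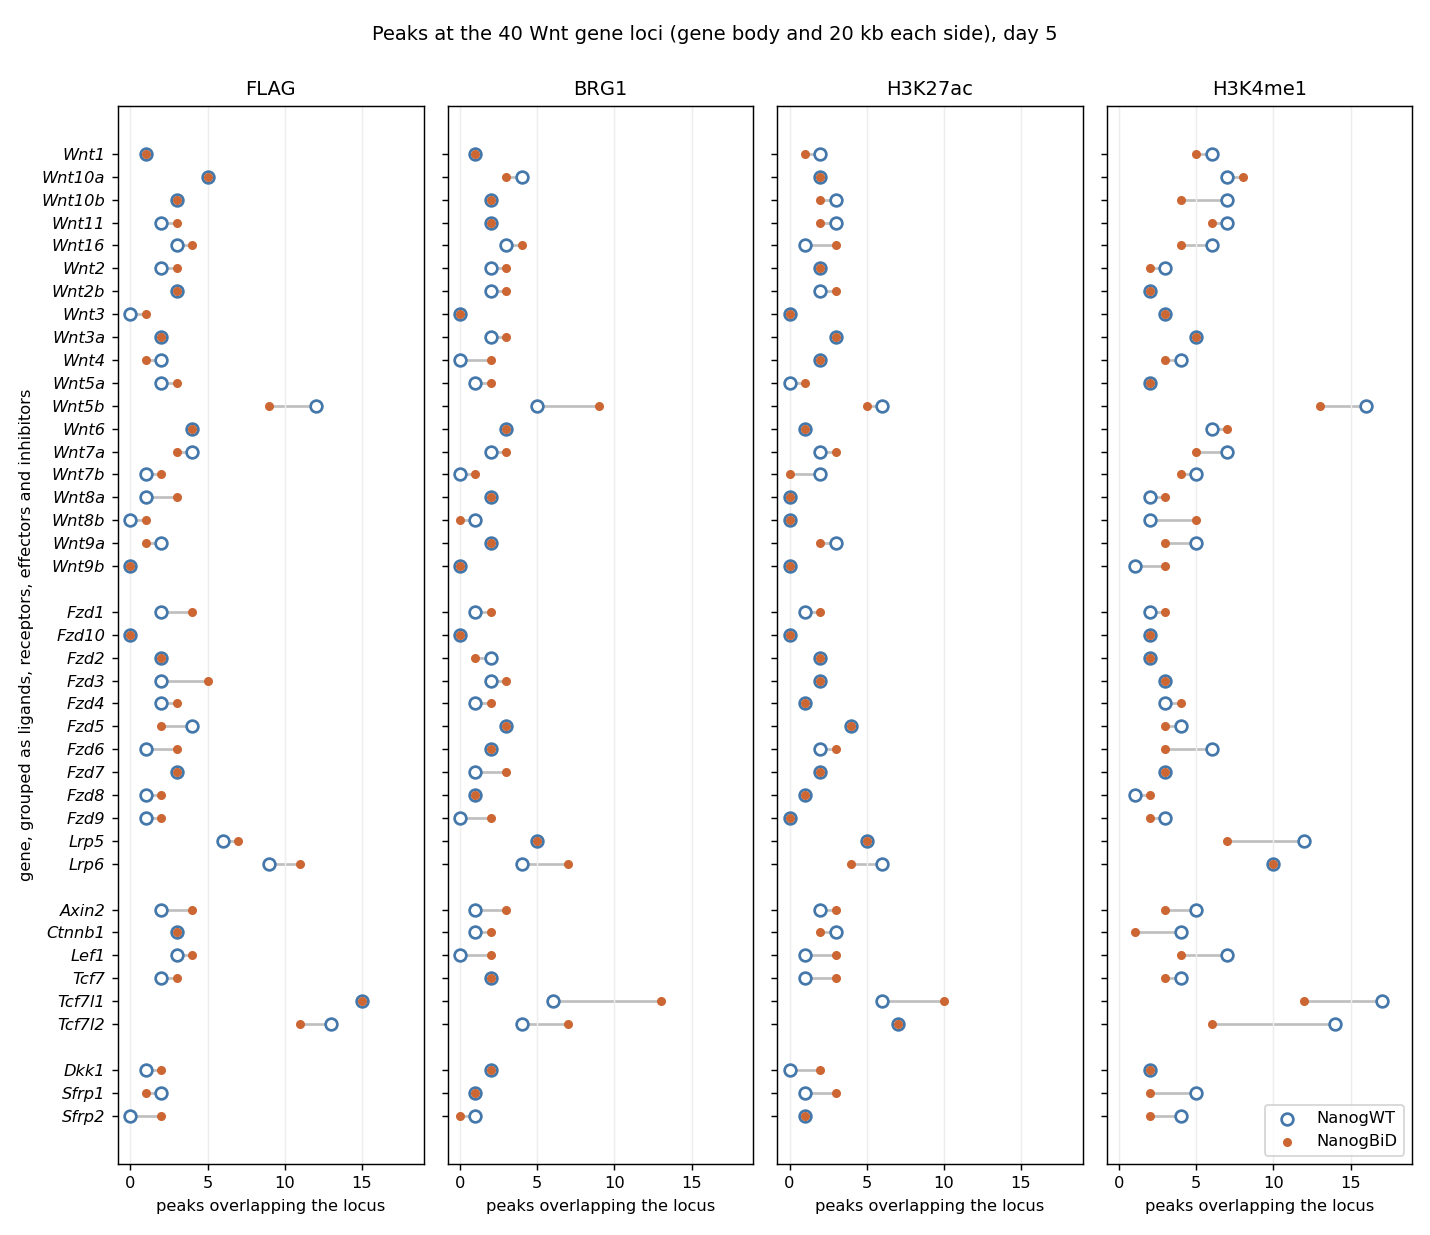
Number of peaks overlapping each of the 40 Wnt loci (rows) for the 4 targets (panels), with an open blue circle for NanogWT and a filled orange circle for NanogBiD, 1 library each. Tcf7l1 holds 6 BRG1 peaks in NanogWT and 13 in NanogBiD, the widest gap in that panel, while its FLAG count is 15 in both.

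The effectors were the role with the widest difference in BRG1. Their 6 loci held 14 BRG1 peaks in NanogWT against 29 in NanogBiD (ratio 2.07, 1.06 to 4.24), with more peaks at 5 loci and the same number at Tcf7, beside more at 42.1% and fewer at 10% of all loci. H3K4me1 peaks numbered 51 and 29, a ratio of 0.569 (0.348 to 0.914), with fewer at all 6 loci, beside 42.5% of all. There were 38 and 40 peaks of FLAG, which turned to 38 and 31 with equal lists, and 20 and 28 of H3K27ac, which became 20 and 24. With lists of equal length the effectors held 14 and 21 BRG1 peaks, a ratio of 1.5 (0.727 to 3.19), with more at 4 loci and fewer at none, beside 14.9% and 32.0% of all. They then held 40 and 29 H3K4me1 peaks, a ratio of 0.725 (0.433 to 1.20), with more at 1 locus and fewer at 4, beside 29.2% and 25.6%. Both intervals then included 1. The effector loci ran from 70.4 kb (Axin2) to 232 kb (Tcf7l2), against a median of 57.4 kb for all loci. The shares of all thus come from mostly shorter loci. Tcf7l1 alone held 6 and 13 of the BRG1 peaks in the deposited lists. Neither the part of locus length nor whether the effectors differ from the other roles was tested.

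Tcf7l1, which encodes the TCF protein that mainly represses, lies on chromosome 6 at 72626378 to 72789254, on the minus strand. It held 15 FLAG peaks in each arm, 6 BRG1 peaks in NanogWT and 13 in NanogBiD, 6 and 10 H3K27ac peaks, and 17 and 12 H3K4me1 peaks. With equal lists the counts were 15 and 13 for FLAG, 6 and 10 for BRG1, 6 and 8 for H3K27ac, and 11 and 12 for H3K4me1. BRG1 and H3K27ac numbers were thus higher in NanogBiD in both sets of lists, while the equality of FLAG and the lower H3K4me1 number held in the deposited lists only. At its promoter the FLAG height was 24 tags in NanogWT and 28 in NanogBiD, and the BRG1 height 25 and 23. Of the 7 further BRG1 peaks, 1 adjoined the promoter peak, from 1.3 to 2.5 kb past the start, 5 lay in introns and 1 lay past the 3′ end of the gene. The adjoining peak lay in the promoter region that had FLAG in both arms, and 4 of the others fell on FLAG peaks that both arms shared, with heights of 13 and 26 tags, 15 and 23 tags, 38 and 26 tags, and 21 and 28 tags in NanogWT and NanogBiD.

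Tcf7l2, a TCF protein that acts with β-catenin in many tissues, lies on chromosome 19 at 55741820 to 55933654. It held 13 and 11 FLAG peaks, 4 and 7 BRG1 peaks, 7 and 7 H3K27ac peaks, and 14 and 6 H3K4me1 peaks in NanogWT and NanogBiD. Its FLAG regions included 7 called in NanogWT alone and 5 called in NanogBiD alone. A peak not called in an arm cannot be taken as absent there. In the intron shown above, 7.2 kb from the nearest start, the FLAG height was 32 tags in NanogWT and 44 in NanogBiD, and the BRG1 height was 15 and 43. Of the sequences printed, this site alone had BRG1 peaks in both arms. With equal lists Tcf7l2 held 13 and 8 FLAG peaks and 4 and 5 BRG1 peaks.

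Lef1, which encodes a partner of β-catenin and is itself a Wnt target, had no BRG1 peak in NanogWT and 2 in NanogBiD. In the intron shown above the FLAG height was 18 tags in NanogWT and 37 in NanogBiD, the BRG1 height in NanogBiD was 21 tags, and H3K27ac was called in NanogBiD alone. A FLAG peak at its promoter, with a height of 17 tags, was called in NanogWT only. The locus as a whole held 3 and 4 FLAG peaks, 1 and 3 of H3K27ac, and 7 and 4 of H3K4me1. With equal lists 1 BRG1 peak remained in NanogBiD, against 0 in NanogWT, and the FLAG counts turned to 3 and 1.

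Axin2, a scaffold of the destruction complex and a widely used readout of canonical signalling, held 2 and 4 FLAG peaks, 1 and 3 BRG1 peaks, 2 and 3 H3K27ac peaks, and 5 and 3 H3K4me1 peaks. Its promoter was occupied in both arms, with FLAG heights of 34 and 23 tags, BRG1 heights of 19 and 24, and H3K27ac heights of 28 and 35. The added BRG1 peaks lay elsewhere. At the site past the gene, whose window holds a TCF/LEF match, FLAG was called in both arms, at 16 and 29 tags, and BRG1 in NanogBiD alone, at 15 tags, together with H3K27ac in NanogBiD alone. A further region at the 3′ end of the gene had FLAG and BRG1 in NanogBiD only, each with a height of 15 tags. With equal lists Axin2 held 1 and 2 BRG1 peaks.

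Ctnnb1, the gene of β-catenin, held 3 FLAG peaks in each arm, 1 and 2 BRG1 peaks, 3 and 2 H3K27ac peaks, and 4 and 1 H3K4me1 peaks. At its promoter the FLAG heights were 25 and 24 tags. Tcf7, which encodes TCF1, held 2 and 3 FLAG peaks, 2 BRG1 peaks in each arm, 1 and 3 H3K27ac peaks, and 4 and 3 H3K4me1 peaks, with no promoter peak of FLAG or BRG1 in either arm. Ctnnb1 and Tcf7 thus differed by no more than 1 BRG1 peak, and with equal lists by none.

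**Figure D2:**
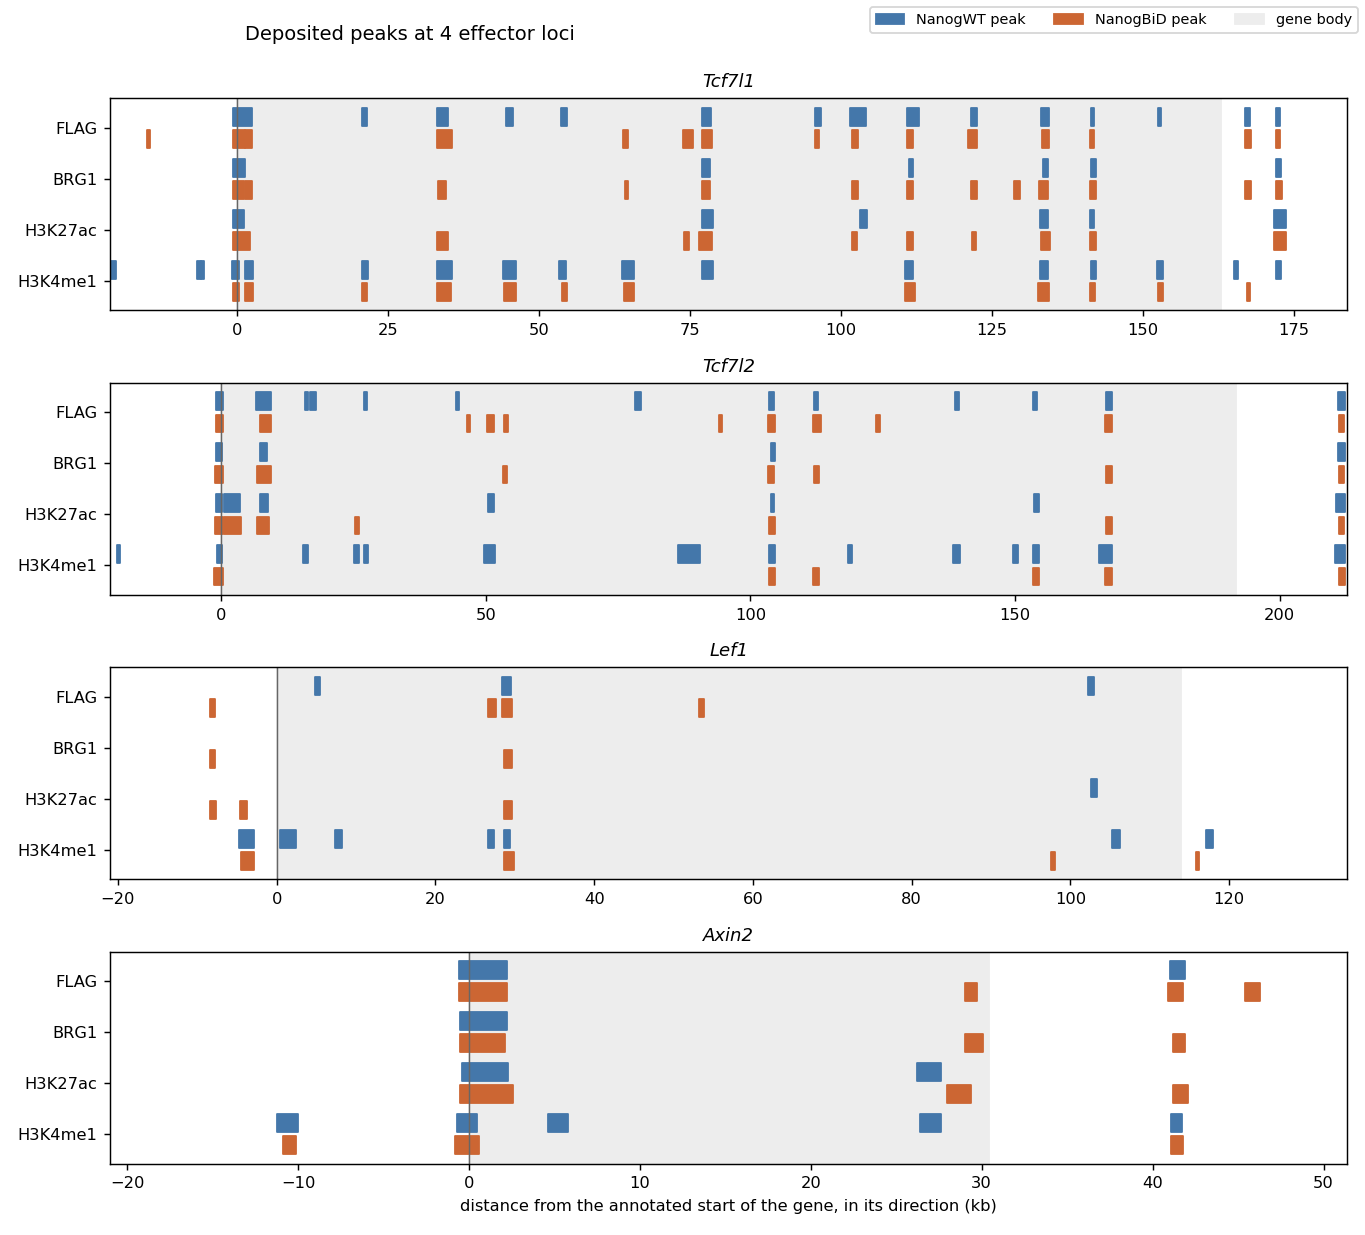
Peaks of NanogWT (blue) and NanogBiD (orange) at Tcf7l1, Tcf7l2, Lef1 and Axin2, for the 4 targets (rows), against distance in kb from the annotated start of the gene, with the gene body shaded. No BRG1 peak is called at Lef1 in NanogWT, and at Axin2 it is at the start in both arms and at the 3′ end and beyond it in NanogBiD alone. Distances in the text are from the nearest annotated transcript start and can differ from these.

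The 12 receptor loci held 33 and 44 FLAG peaks, a ratio of 1.33 (0.830 to 2.16), 22 and 31 BRG1 peaks, a ratio of 1.41 (0.790 to 2.55), 26 H3K27ac peaks in each arm, and 51 and 44 H3K4me1 peaks. FLAG peaks were more numerous in NanogBiD at 8 of the 12 and fewer at 1, Fzd5, beside 40.9% and 14.4% of all loci. With equal lists there were 33 FLAG peaks in each arm, with more at 5 loci and fewer at 4, beside 23.3% and 27.6%, and 22 and 18 BRG1 peaks. H3K27ac was called at the promoters of 10 of 12 receptors in both arms, the exceptions being Fzd9 and Fzd10. The ligands had it at 4 of 19 promoters in NanogWT and at 6 of 19 in NanogBiD. Of all protein-coding genes, 57.1% and 59.9% had it.

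Lrp6, a co-receptor for Wnt ligands, held 9 and 11 FLAG peaks, 4 and 7 BRG1 peaks, 6 and 4 H3K27ac peaks, and 10 H3K4me1 peaks in each arm. Its close relative Lrp5 held 6 and 7 FLAG peaks, 5 BRG1 and 5 H3K27ac peaks in each arm, and 12 and 7 H3K4me1 peaks. With equal lists Lrp6 held 4 and 5 BRG1 peaks and Lrp5 5 and 1, so which of the co-receptors differed in BRG1 depended on list length. Their FLAG counts turned to 9 and 7 at Lrp6 and 6 and 4 at Lrp5.

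The Frizzled genes encode the receptors that bind Wnt ligands directly. Fzd3 held 2 FLAG peaks in NanogWT and 5 in NanogBiD, and its site shown above had FLAG and BRG1 in NanogBiD only, at 14 and 10 tags. Fzd6 held 1 and 3 FLAG peaks, with 2 BRG1 peaks in each arm, and Fzd1 held 2 and 4 FLAG peaks. Fzd7 and Fzd9 differed in BRG1, with 1 and 3 peaks and with 0 and 2 peaks. These were the Frizzled loci with more peaks of FLAG or BRG1 in NanogBiD by at least 2. With equal lists neither BRG1 difference remained, at 1 and 1 peaks for Fzd7 and 0 and 0 for Fzd9, and the FLAG counts were 2 and 4 at Fzd3, 1 and 2 at Fzd6, and 2 and 4 at Fzd1.

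At Fzd4 a region with FLAG at 33 tags and BRG1 at 28 tags was called in NanogBiD only, and it had the highest scores of any such region at the 40 loci. Fzd5 differed the other way, with 4 and 2 FLAG peaks and 3 BRG1 peaks in each arm. One region of its locus, in an intron of the neighbouring gene Ccnyl1, had FLAG at 23 tags and BRG1 at 18 tags in NanogWT only. Fzd2 had the tallest promoter FLAG peak of the receptors in both arms, at 38 and 50 tags, and the BRG1 height there was 34 and 31. Fzd8 held 1 and 2 FLAG peaks and 1 BRG1 peak in each arm, and Fzd10 had none of FLAG, BRG1 or H3K27ac.

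**Figure D3:**
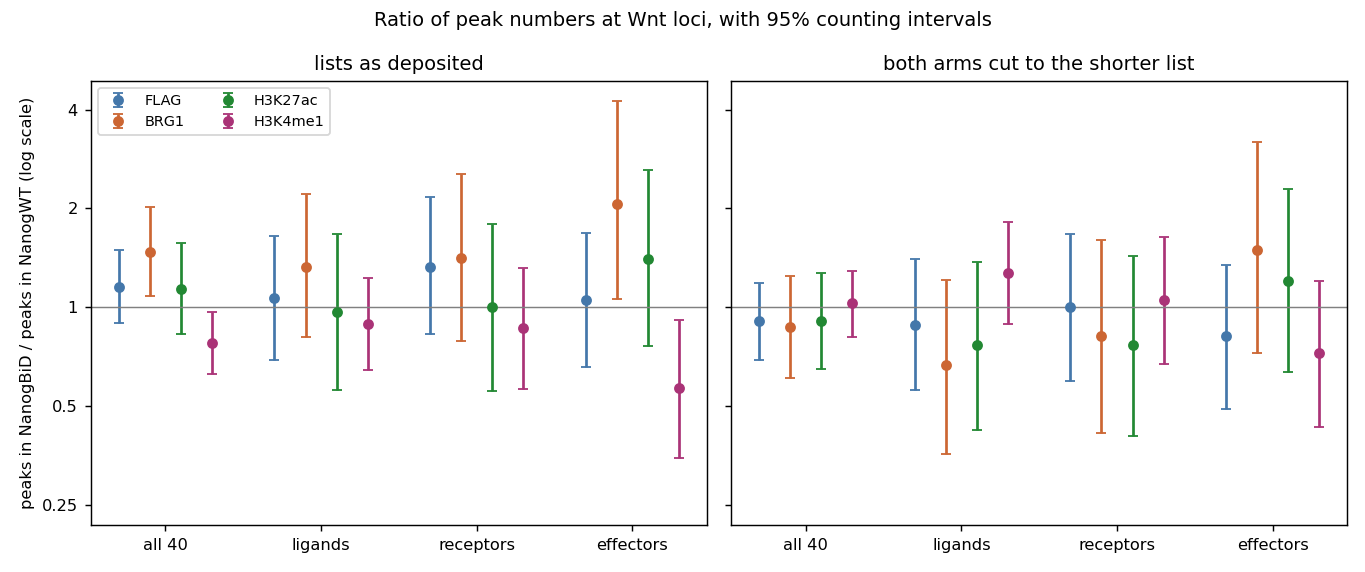
Ratio of peak numbers, NanogBiD over NanogWT, on a log scale, for all 40 Wnt loci, ligands, receptors and effectors, with exact binomial 95% intervals that cover counting error only. The left panel uses the deposited lists and the right panel lists of equal length, where the BRG1 ratio over all loci is 0.871 and that of the effectors 1.5.

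The 19 ligand loci held 44 and 47 FLAG peaks, 30 and 40 BRG1 peaks, a ratio of 1.33 (0.810 to 2.22), 30 and 29 H3K27ac peaks, and 84 and 75 H3K4me1 peaks. None of the 4 intervals excluded 1. With equal lists the BRG1 peaks numbered 30 and 20. No ligand locus then had more in NanogBiD and 7 had fewer, beside 14.9% and 32.0% of all loci. Wnt5b, a ligand of the non-canonical branch, had the most FLAG peaks of the ligands in both arms, 12 and 9, and its BRG1 peaks numbered 5 and 9, so that the arms differed in opposite directions for NANOG and BRG1. With equal lists it held 5 BRG1 peaks in each arm.

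Wnt5a, likewise a non-canonical ligand, held 2 and 3 FLAG peaks and 1 and 2 BRG1 peaks. At the site before its start shown above, FLAG was 14 tags high in NanogWT and 26 in NanogBiD, and BRG1, at 25 tags, and H3K27ac were called in NanogBiD alone. Near the annotated starts, of which the gene has several, neighbouring regions were called in NanogWT only, with FLAG at 16 tags and BRG1 at 13, and in NanogBiD only, at 14 and 15 tags. With equal lists Wnt5a held 2 FLAG peaks and 1 BRG1 peak in each arm.

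Wnt4 had no BRG1 peak in NanogWT and 2 in NanogBiD, against 2 and 1 FLAG peaks. Its site shown above had FLAG at 24 tags and BRG1 at 12 tags in NanogBiD only, and no H3K27ac peak of either arm covered those bases. The nearest H3K27ac peaks began further from the start, at 37.9 kb in NanogWT and 38.8 kb in NanogBiD. With equal lists Wnt4 held no BRG1 peak in either arm. Wnt8a held 1 and 3 FLAG peaks and 2 BRG1 peaks in each arm. Wnt16 held 1 and 3 H3K27ac peaks and Wnt7b 2 and 0, the ligands at which that mark differed by at least 2.

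The remaining ligands differed by no more than 1 FLAG, 1 BRG1 and 1 H3K27ac peak. The tallest FLAG peak of any member in NanogWT, at 56 tags, lay past the 3′ end of Wnt10a, and a BRG1 peak overlapped its edge in that arm only. Its height in NanogBiD was 43 tags, where Fzd2 was taller, at 50 tags. Wnt2 had a taller region at its 3′ side in NanogBiD, with FLAG at 32 and 46 tags and BRG1 at 14 and 33. Wnt3 had no BRG1 or H3K27ac peak in either arm and Wnt9b had no FLAG, BRG1 or H3K27ac peak. H3K4me1 was called at all 40 loci in both arms, so no member lacked peaks altogether.

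Among the inhibitors, Dkk1, which blocks LRP5 and LRP6, held 1 and 2 FLAG peaks, 2 BRG1 peaks in each arm, and 0 and 2 H3K27ac peaks. Its promoter FLAG height was 9 tags in NanogWT and 16 in NanogBiD. With equal lists its BRG1 peaks numbered 2 and 1 and its H3K27ac peaks 0 and 1. Sfrp1, which binds Wnt ligands outside the cell, held 2 and 1 FLAG peaks, 1 BRG1 peak in each arm and 1 and 3 H3K27ac peaks.

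The single BRG1 peak of Sfrp1 lay at different places in the arms. At the promoter site shown above, FLAG at 19 tags was called in NanogWT only, and H3K27ac in both arms. The BRG1 peak of NanogWT, at 12 tags, did not cover the bases shown but lay from 0.4 to 1.0 kb past the start, in the same merged region. At the distal site, FLAG had heights of 22 and 27 tags, BRG1 was called in NanogBiD only, at 23 tags, and H3K27ac was also called in NanogBiD only. Sfrp2 held 0 and 2 FLAG peaks, 1 and 0 BRG1 peaks, and 1 H3K27ac peak in each arm. For the 3 inhibitors together no interval of a ratio excluded 1, with between 2 and 11 peaks of a target in an arm.

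Promoters, taken as 2 kb either side of an annotated start, had BRG1 at equal numbers of Wnt genes in the deposited lists. Whether the promoter counts hold with lists of equal length was not tested. A BRG1 peak was called at 22 of 40 promoters in each arm, beside 53.9% and 55.5% of all genes, in NanogWT only at Wnt11 and Sfrp1 and in NanogBiD only at Lrp5 and Wnt7a. For FLAG the promoters with a peak were 23 (NanogWT) and 20 (NanogBiD), with Lef1, Wnt4, Wnt16 and Sfrp1 in NanogWT only and Wnt2 in NanogBiD only. Of all genes 55.2% and 56.8% had promoter FLAG. Among the 21884 genes, promoter FLAG was confined to the wild-type arm at 819 and to the fusion arm at 1160. The matching numbers for BRG1 were 786 and 1128. H3K27ac was called at 19 and 22 Wnt promoters, and H3K4me1 at 33 and 34, beside 63.3% and 62.0% of all genes for the latter. Wnt10b had promoter H3K27ac in NanogWT only, and Dkk1, Wnt2b, Wnt16 and Wnt7a in NanogBiD only. Among all 21884 genes, promoter H3K27ac was confined to the wild-type arm at 314 and to the fusion arm at 938.

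Peaks of both arms were then merged into regions, and a region was shared when both arms had a peak in it. For FLAG, 84 regions of the Wnt loci were shared, 32 belonged to NanogWT and 49 to NanogBiD (29.7%, with 33.7% of all regions in NanogBiD only and 15.8% in NanogWT only). For BRG1, 56 were shared, 14 belonged to NanogWT and 44 to NanogBiD (38.6%, beside 48.4% and 9.91% of all). For H3K27ac the numbers were 57, 21 and 32, beside 29.1% and 14.6% of all, and for H3K4me1 126, 68 and 27, beside 17.3% and 34.8%. The Jaccard index, shared over all regions, was 0.509 (0.433 to 0.584) for FLAG, 0.491 (0.401 to 0.582) for BRG1, 0.518 (0.426 to 0.609) for H3K27ac and 0.570 (0.504 to 0.634) for H3K4me1. For all regions of the genome it was 0.505, 0.416, 0.564 and 0.479. Only the H3K4me1 value of the genome lay outside the Wnt interval, and whether the Wnt loci differ was not tested. Promoter shares were taken from regions in which FLAG and BRG1 peaks were merged together, described below, and from the starts of any protein-coding gene. Of such regions with FLAG in NanogBiD only, 4 of 49 at the Wnt loci lay within 2 kb of a start. Of those with FLAG in both arms, 27 of 82 did. The shares over all such regions were 9.73% and 27.1%.

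Heights at shared regions were compared as log2 of the fusion arm over the wild-type arm. The median at the Wnt loci was 0.21 (FLAG), 0.07 (BRG1), 0.08 (H3K27ac) and -0.17 (H3K4me1), beside 0.15, 0.14, 0.08 and -0.18 over all regions. The BRG1 median turned to -0.06 with a minimum score of 100. With scores in place of heights it was 0.22, and the FLAG median was 0.08. For FLAG the median was 0.45 at effectors (25 regions), 0.29 at receptors (24 regions) and 0.09 at ligands (33 regions), and 18, 16 and 20 of those regions were taller in NanogBiD and 7, 7 and 11 in NanogWT. For BRG1 the medians were 0.10 (14 regions), -0.07 (17 regions) and 0.00 (23 regions), with 8, 8 and 11 regions taller in NanogBiD and 6, 9 and 10 in NanogWT. Of all shared regions, 58.6% were taller in NanogBiD for FLAG and 57.5% for BRG1.

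FLAG peaks of the Wnt loci coincided with BRG1 more often in NanogBiD. In NanogWT 59 of 118 FLAG peaks overlapped a BRG1 peak, or 50% (Wilson 95% interval 41.1 to 58.9), and in NanogBiD 93 of 136, or 68.4% (60.2 to 75.6). Over the whole lists the shares were 44.1% and 64.7%, and with lists of equal length the NanogBiD share at the Wnt loci was 55.1% (45.7 to 64.2), inside the interval of NanogWT. The share with H3K27ac was 49.2% and 52.9%, beside 48.9% and 48.3% over the whole lists. The share with H3K4me1 was 73.7% (65.1 to 80.8) and 60.3% (51.9 to 68.1), beside 63.6% and 49.0%.

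When FLAG and BRG1 peaks of both arms were merged together, 82 regions of the Wnt loci had FLAG in both arms. BRG1 was called in both arms at 49 of them, in NanogBiD only at 24, or 29.3% (20.5 to 39.9), in NanogWT only at 3 and in neither at 6. Among all such regions of the genome 32.0% had BRG1 in NanogBiD only. With equal lists the count was 15 of 77, or 19.5% (12.2 to 29.7), with BRG1 in NanogWT only at 11, and the genome share 19.6%. The 24 regions lay at 17 loci, 9 of the regions at effectors, 8 at ligands, 6 at receptors and 1 at an inhibitor, and their FLAG peak was taller in NanogBiD at 20 of the 24, or 83.3%, beside 71.7% of all such regions. The median FLAG height there was 15.5 tags in NanogWT and 23 in NanogBiD.

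**Figure D4:**
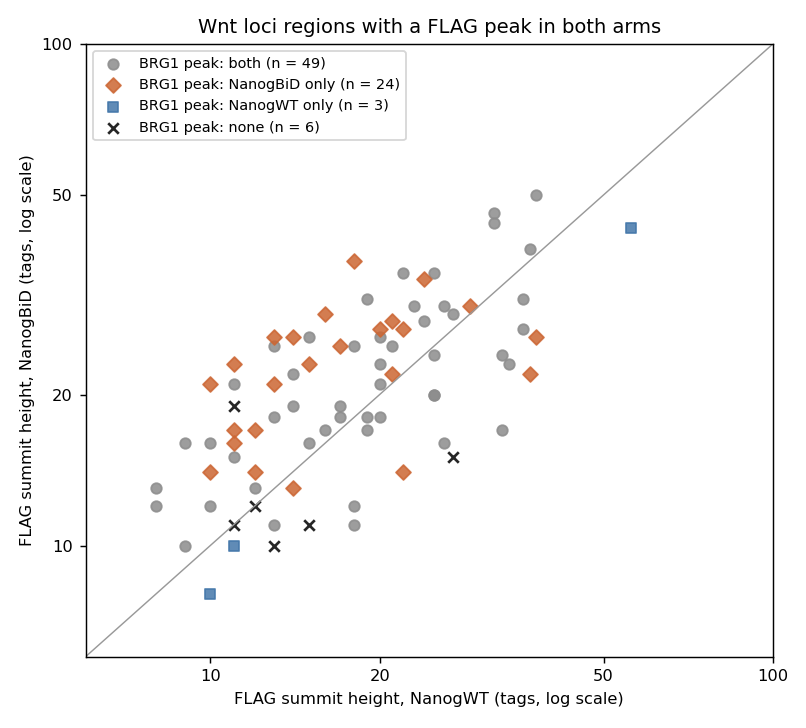
FLAG summit heights in NanogWT (x) and NanogBiD (y), in tags on log axes, at the 82 Wnt regions with a FLAG peak in both arms, marked by the arms in which BRG1 was called. The line marks equal heights, and 20 of the 24 regions with BRG1 in NanogBiD only lie above it (83.3%, beside 71.7% of all such regions).

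H3K27ac was called at more of these 24 regions in NanogBiD. The mark was present at 5 of them in NanogWT, or 20.8% (9.24 to 40.5), and at 14 in NanogBiD, or 58.3% (38.8 to 75.5), with 11 in NanogBiD only and 2 in NanogWT only. The former included the Axin2, Lef1, Wnt5a and distal Sfrp1 sites and regions at Fzd6, Tcf7l2, Tcf7l1 and Wnt5b. H3K4me1 was called at 15 and 17 of the 24, or 62.5% and 70.8%. Over all regions of this class H3K27ac was called at 24.8% and 52.7%, and H3K4me1 at 51.5% and 52.1%. Regions with FLAG in NanogBiD only and no BRG1 peak, 32 in all, carried H3K27ac at 2 in NanogWT and 1 in NanogBiD, where all such regions had it at 3.66% and 8.87%.

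The fusion alone had FLAG at 49 regions, and BRG1 was likewise confined to that arm at 12 of them, or 24.5% (14.6 to 38.1), beside 35.1% of all such regions. Wild-type NANOG alone was called at 32, with BRG1 confined to the same arm at 3, at Fzd5, Wnt5a and Sfrp1, and no BRG1 peak at 24, beside 10.4% and 77.1% of all such regions. At those 24, H3K27ac was called at 6 in NanogWT and 1 in NanogBiD, and H3K4me1 at 17 and 10. Over all regions of that class the shares were 17.2% and 8.91% for H3K27ac and 45.3% and 22.9% for H3K4me1.

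**Figure D5:**
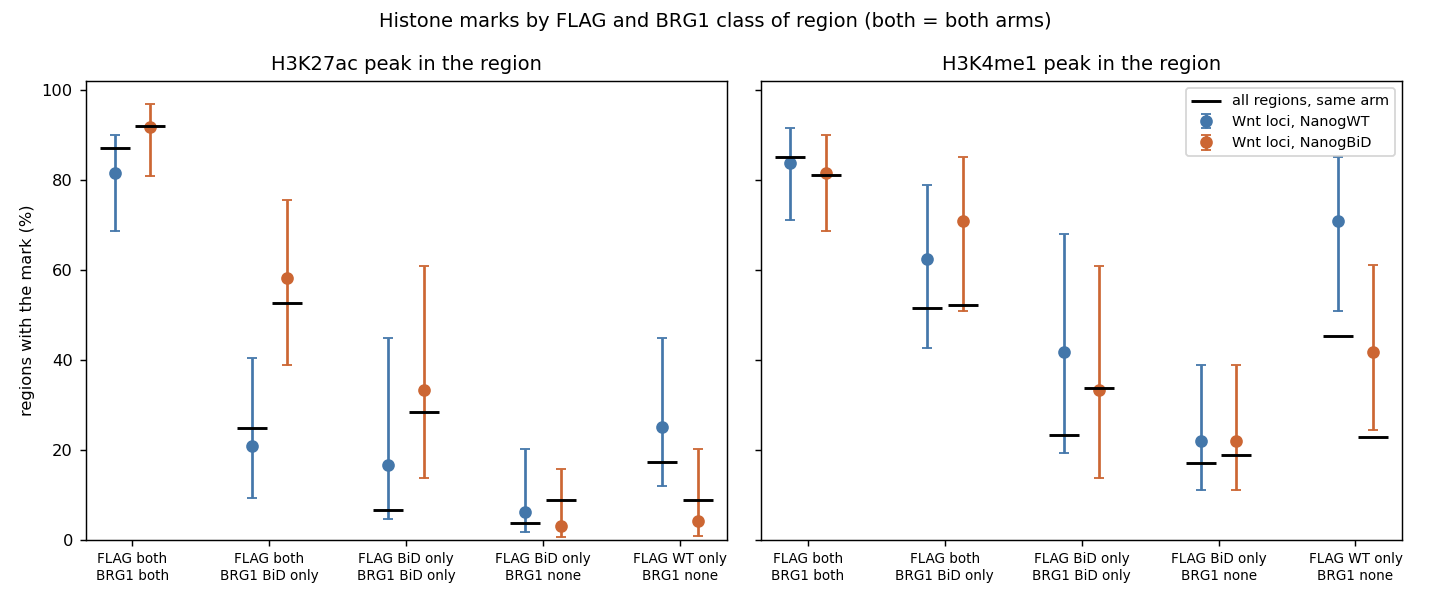
Share of Wnt regions, in percent with Wilson 95% intervals, that overlap an H3K27ac (left) or H3K4me1 (right) peak in NanogWT (blue) and NanogBiD (orange), by the arms in which FLAG and BRG1 were called. Black bars give all regions of the genome. In the class with FLAG in both arms and BRG1 in NanogBiD only, H3K27ac is at 20.8% and 58.3%.

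Motifs were counted within 50 bp of each FLAG summit, on both strands. The letters searched were ATCAAAG and TTCAAAG for TCF/LEF, ACAATGG and ACAAAGG for SOX, ATGCAAAT for the OCT octamer, TAATGG for NANOG, TGACTCA and TGAGTCA (each the reverse complement of the other) for AP-1, and GGAATG for TEAD. No motif is contained in another on either strand. A TCF/LEF match was found at 6 of 118 summits of the Wnt loci in NanogWT, or 5.08% (2.35 to 10.7), and at 9 of 136 in NanogBiD, or 6.62% (3.52 to 12.1). Of all FLAG summits 4.28% and 4.95% held one. In windows 1 kb from the summits, 4.12% and 4.22% of all held one, and 0% and 1.47% at the Wnt loci. Over all summits the letters were thus nearly as frequent 1 kb away. The Axin2 site shown above is one of the 9 in NanogBiD, and binding of a TCF protein there was not tested.

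TEAD matches were found at 10 Wnt summits in NanogWT, or 8.47% (4.67 to 14.9), and at 2 in NanogBiD, or 1.47% (0.404 to 5.20), with 7.40% and 6.75% of all summits. AP-1 matches were found at 3.39% and 6.62%, NANOG matches at 0.847% and 4.41%, SOX matches at 3.39% and 5.15% and octamer matches at 0.847% and 1.47%. Over all summits the AP-1 share was 5.82% and 7.68%, the NANOG share 4.99% and 7.32%, the SOX share 4.14% and 4.81% and the octamer share 1.81% and 2.49%. In windows 1 kb away from all summits the shares were 1.6% and 1.76% (AP-1), 3.97% and 4.02% (NANOG), and 3.57% and 3.53% (SOX). For the octamer they were 0.672% and 0.635%, and for TEAD 5.29% and 5.42%. The intervals of the arms overlapped at the Wnt loci for all 6 motifs.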

How the data were processed

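Peak and summit lists of 8 CUT&Tag libraries were used. Per the methods of the study and the submitters' processing notes, the authors trimmed reads with Trim Galore 0.6.4, aligned them to mm10 with Bowtie2 2.4.5, filtered them with SAMtools 1.16.1, merged replicates, whose number per list is not given in the sources used here apart from a minimum stated for the study's experiments in general, and called peaks with MACS 1.4.2, keeping 1 tag of any duplicates and naming no control. In the deposited peak lists the score is the caller's significance score, with a minimum of 50. The deposited signal, called height here, counts the tags piled up at each summit. Neither is scaled to depth, which is unknown, so more peaks can come from a deeper library.

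Loci were taken from GENCODE vM21 and overlaps needed 1 bp. Sequences were read from the RefSeq genome of the same build. Regions were merged peaks that overlapped or touched. Shares carry Wilson intervals and ratios exact binomial intervals (95%), which cover counting error only and not variation between cultures. The members and the gene lists were chosen with earlier results of these data known. All 40 members were counted, and named in detail were those whose FLAG, BRG1 or H3K27ac number differed by at least 2, those lacking peaks, the effectors, the inhibitors, Lrp5 and Lrp6, and the regions with the highest lower score of FLAG and BRG1 in a single arm. Other members and sites named were chosen after their values were seen. Other settings were a minimum score of 100, the top 20000 peaks by score, both arms cut to the shorter list, flanks of 10 and 50 kb, summits in the locus, the nearest start site, overlap of 50% of both peaks, merging across 500 bp and scores in place of heights. The equal-length lists by role, by region class, for all loci and for other pathway genes were added after the data were seen. Counting was tested on simulated peaks. Python 3.11.15, numpy 2.4.6, pandas 2.3.3 and scipy 1.17.1 were used.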

Additional observations from a re-analysis of the deposited data

How the results depend on the processing

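No paired analysis was possible because no group held a further library. Peak numbers depended most on list length. With both arms cut to the shorter list, the ratio was 0.871 for BRG1 and 1.03 for H3K4me1, while those of FLAG, 0.907, and H3K27ac, 0.910, fell below 1 inside their intervals. FLAG peaks were fewer in NanogBiD at 17 loci, BRG1 peaks more at 6 and fewer at 12, H3K27ac peaks fewer at 15, H3K4me1 peaks more at 15 and fewer at 13, and 55.1% of NanogBiD FLAG peaks had BRG1. With the 20000 highest-scoring peaks, the ratio was 0.806 for FLAG, 0.714 for BRG1, 1.02 for H3K4me1 and 1.18 for H3K27ac, which kept its direction, FLAG peaks were more at 6 loci and fewer at 12, BRG1 peaks more at 5 and fewer at 12, H3K27ac peaks more at 9 and fewer at 3, and H3K4me1 peaks fewer at 12. There the Jaccard index was 0.358 for BRG1, 0.674 for H3K27ac and 0.360 for H3K4me1, and 61.1% of NanogWT and 79.3% of NanogBiD FLAG peaks had BRG1. With a score of at least 100, the ratio was 2.07 for BRG1 and 0.627 for H3K4me1, FLAG peaks were more at 13 loci, H3K27ac peaks fewer at 2 and H3K4me1 peaks more at 5. There the index was 0.655 (FLAG), 0.390 (BRG1), 0.673 (H3K27ac) and 0.360 (H3K4me1), and 33.3% of NanogWT FLAG peaks had BRG1. BRG1 peaks were more at 13 loci with a flank of 10 kb. With overlap of 50% of both peaks, the index was 0.419 for FLAG and 0.475 for H3K4me1 and the NanogWT share 38.1%. The other 135 values lay within the interval, or within 1.5 times the count, of the value reported. Cutting to the shorter list drops the lower-scoring peaks of the longer list by construction, and the cause of the reversals beyond that was not tested. The depth of the libraries is unknown, so no peak called in a single arm can be taken as absent in the other.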

Other observations

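Other genes of the pathway were counted in the same way, from a list of 60 that holds none of the 40. BRG1 peaks were more numerous in NanogBiD at 34 of the 60 loci and fewer at 9, and FLAG peaks at 37 and 11. H3K27ac peaks were more numerous at 23 and fewer at 10, and H3K4me1 peaks at 6 and 31. The percentages were 56.7% and 15.0% for BRG1 and 61.7% and 18.3% for FLAG, beside 42.1% and 10%, and 40.9% and 14.4%, of all protein-coding loci. For H3K27ac they were 38.3% and 16.7%, beside 29.1% and 13.5%, and for H3K4me1 10% and 51.7%, beside 16.2% and 42.5%. With both arms cut to the shorter list, which was added after the data were seen, BRG1 peaks were more numerous at 12 and fewer at 28, FLAG peaks at 24 and 23, H3K27ac peaks at 16 and 16, and H3K4me1 peaks at 31 and 9, so the direction turned for BRG1 and H3K4me1. Of all loci the shares were then 14.9% and 32.0% for BRG1, 23.3% and 27.6% for FLAG, 18.2% and 21.4% for H3K27ac, and 29.2% and 25.6% for H3K4me1.

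The widest differences in BRG1 were at Tnik, a kinase that acts on TCF7L2, with 4 peaks in NanogWT and 13 in NanogBiD, and at Tle4, a corepressor of TCF proteins, with 3 and 10. With equal lists these counts were 4 and 6, and 3 and 5. Among the R-spondins and their receptors, which raise Frizzled levels at the cell surface, Rspo3 held 2 and 7 BRG1 peaks, Lgr4 2 and 8, Lgr5 3 and 6, and Lgr6 2 and 7, while Rspo1 held 2 and 1, Rspo2 0 and 2, and Rspo4 none. Of the planar polarity and non-canonical genes, Prickle2 held 5 and 11, Ror1 3 and 8, Ror2 7 and 10, Prickle1 5 and 8, Celsr2 2 and 4 and Celsr3 4 and 6, while Vangl1 held 3 and 4 and Vangl2, Celsr1 and Ryk had equal numbers. With equal lists Prickle1 and Prickle2 each held 5 and 5, Celsr1 2 and 1, Celsr2 2 and 2, Celsr3 4 and 3, Vangl1 3 and 3, Vangl2 1 and 1, Ryk 3 and 2, Rspo1 2 and 0, Rspo2 0 and 2, Ror1 3 and 4, Ror2 7 and 6, Rspo3 2 and 3, Lgr4 2 and 4, Lgr5 3 and 5 and Lgr6 2 and 2. Bcl9, a coactivator of β-catenin, and Ptk7, a co-receptor, had fewer, with 7 and 4 and with 10 and 8, and with equal lists 7 and 3 and 10 and 5.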
